A study of Sus scrofa with 31 samples.

Results

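Static cold storage keeps an arrested donor heart on ice with no flow through its vessels, and the comparison described here set 24 h of that storage against 0 h in the same pig (Sus scrofa) hearts. It used 6 of the 31 samples of the series, which were the SCS 24 h libraries of pigs 1, 3 and 5 and the SCS 0 h libraries of the same animals, paired by the pig number in the sample titles. The other arm 1 groups were the SCS biopsies of these hearts at 12 and 48 h, and biopsies of pigs 2, 4 and 6 at 0, 12, 24 and 48 h of HOPE, a hypothermic machine perfusion; each group held 3 libraries. The labels name no transgene, drug or other agent in any group, and the sources used here do not give strain, age or sex. Genes were described when their mean was at least 10 normalised counts over the 24 arm 1 libraries, which left 14141 of 21313 genes.

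A heart in static cold storage is arrested and cold, its vessels carry no flow, and its metabolism is slowed. RNA sequencing of a biopsy gives each transcript relative to the others in the library, not an amount per cell. In working myocardium, stretched cardiomyocytes release the natriuretic peptides, fibroblasts lay down collagen, smooth muscle and pericytes wrap the vessels, and endothelium lines them.

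The 24 h libraries held 19722065, 20067131 and 27444808 recovered reads in pigs 1, 3 and 5, and the 0 h libraries of the same pigs held 20490478, 28643950 and 26063218. The labels name cardiomyocytes as the cell type, whereas the sample was a myocardial biopsy, and the libraries held markers of several cell types. The 13 tested cardiomyocyte markers summed to between 1220146 and 2038314 normalised counts at 24 h and between 1316171 and 1600482 at 0 h. The 15 endothelial markers summed to between 33992 and 79389.8 at 24 h and between 56803 and 75086 at 0 h. The 15 fibroblast markers summed to between 164282 and 195702 at 24 h and between 99903 and 149674 at 0 h. In bulk samples fewer cells of a type and less RNA per cell cannot be told apart.

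No gene passed an adjusted p of 0.05 between 24 h and 0 h in the limma fit with the pig as a block (0 of 14141, 0%). At an unadjusted p under 0.05 limma had 1592 genes (11.3%), with 829 genes higher at 24 h (5.86%) and 763 lower (5.4%). DESeq2 on the recovered reads called 90 genes (0.636%), with 80 genes higher (0.566%) and 10 lower (0.0707%), while edgeR's quasi-likelihood test called 0, with 1610 genes at an unadjusted p under 0.05. DESeq2 gave an adjusted p for 7013 of the 14141 genes, and its 90 calls were 1.28% of those. All 90 genes called by DESeq2 lay in the same direction in each of the 3 hearts. The DESeq2 fit had the pig as a block, which favours such genes, so their common direction is not a finding. Across all tested genes 15.3% were higher at 24 h in all 3 hearts and 15% were lower in all 3, and the groups did not overlap for 4.68% on the higher side and 5.49% on the lower side.

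The hearts differed from each other in how their transcripts moved. Across the 14141 genes the log2 change of pig 3 had a Pearson correlation of 0.19 with that of pig 5, while pig 1 reached 0.06 with pig 3 and 0.03 with pig 5; genes are not independent replicates, and these are descriptions. The 24 h and 0 h libraries of a heart still resembled each other more than libraries of other hearts. Deviations from the group means correlated at 0.33 to 0.41 within the 3 hearts. Values are therefore given heart by heart, in the order of pigs 1, 3 and 5.

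NPPB, which encodes B-type natriuretic peptide (ENSSSCG00000003431, chromosome 6, positions 71930374 to 71931843), had the largest fitted change of all tested genes. It stood at 1199, 312 and 217 normalised counts at 24 h in pigs 1, 3 and 5, against 71.7, 47.8 and 9.6 at 0 h. Every 24 h value lay above every 0 h value. The log2 difference over the 3 hearts was 3.70 ± 1.09 (SE), with a limma adjusted p of 0.29 and a DESeq2 adjusted p of 0.0338, so the call depended on the tool. Here and below the SE comes from the fit of both arms, HOPE hearts included. It is therefore not the spread between the 3 SCS hearts. With only the 0 h and 24 h libraries in the fit, limma called NPPB as 1 of 3 genes, at an adjusted p of 0.0075.

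NPPA, the gene of atrial natriuretic peptide and the chromosomal neighbour of NPPB (chromosome 6, positions 71919557 to 71921345), was also higher at 24 h in each heart. It stood at 2487, 2567 and 442 normalised counts at 24 h and at 279.7, 1046 and 46.8 at 0 h. The groups overlapped, because pig 3 at 0 h exceeded pig 5 at 24 h. The log2 difference was 2.55 ± 1.06 (SE), and limma gave an adjusted p of 0.38. The wider list of natriuretic and myocyte stress genes had 11 tested members of 13. Of these, 3 were higher at an unadjusted p under 0.05, namely NPPA, NPPB and ANKRD2, and 0 were lower. Over all genes the shares were 5.86% and 5.4%. ANKRD1, a cardiac ankyrin repeat protein of the stretch response, stood at 83543, 33390.2 and 20768 at 24 h and at 17466, 46039 and 27526 at 0 h, so it was higher in pig 1 alone. The list median was 1.42 in pig 1, -0.20 in pig 3 and -0.08 in pig 5.

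Some other genes were named for having the largest changes shared by all 3 hearts, so their common direction is not a finding. DKK3, a Dickkopf family secreted protein, stood at 6598, 1537 and 1277 normalised counts at 24 h and at 2389.6, 584 and 449 at 0 h. Its log2 difference was 1.46 ± 0.70 (SE), and its changes of 1.46, 1.39 and 1.51 were close to each other although the level in pig 1 stood apart. HOPE hearts 2, 4 and 6, which also enter the SE, changed by -1.91, -3.43 and 1.03. MYL4, the atrial essential myosin light chain, stood at 252, 932 and 581 at 24 h and at 123, 273 and 146 at 0 h. PDYN, the precursor of dynorphin peptides, stood at 103, 405 and 69.5 at 24 h and at 11.4, 193 and 0 at 0 h. SFRP1, a secreted Wnt inhibitor, stood at 755, 1024 and 666 at 24 h and at 415, 286 and 369.7 at 0 h, with no overlap. Of 7 tested atrial markers of 10, 1 had an unadjusted p under 0.05, where the share over all genes was 11.3% in either direction. The list median was 0.17, against -0.01 over all tested genes. It was -0.17 under total-count scaling, where all tested genes had a median of -0.36. Its sign turned with the scaling, while it stayed above the median of all genes. NPPA and MYL4 were higher in all 3 hearts, while MYH6, the alpha myosin heavy chain, was lower in all 3 at 7919, 12686 and 8968, against 10069, 22579 and 11771 at 0 h. MYH6 and MYH7 are close paralogs, so reads may have been split between them. Those 7 markers summed to between 12417 and 19059.8 normalised counts at 24 h and between 12163 and 26827 at 0 h. The sources used here do not give the site of each biopsy within the heart, and the part of atrial tissue in these values was not tested.

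**Figure D1:**
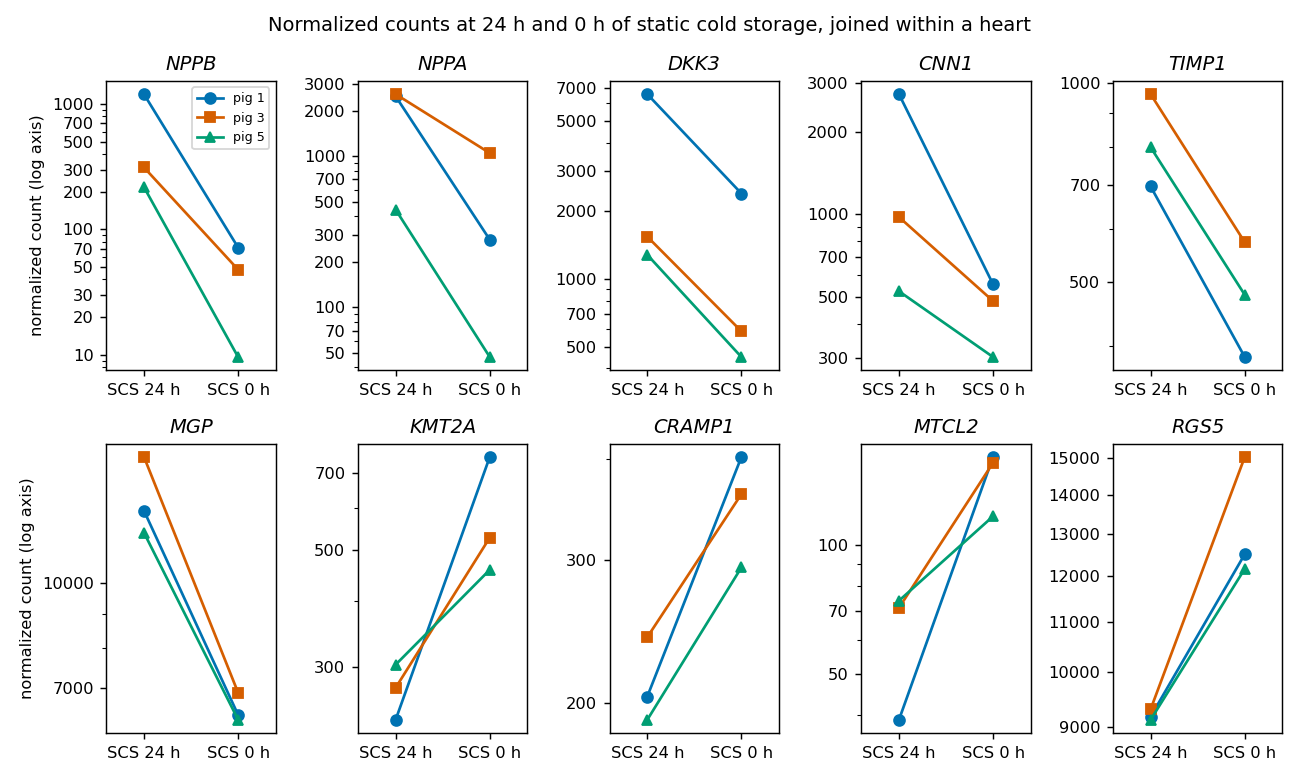
Normalised counts (log axis) of 10 genes at 24 h and at 0 h of static cold storage, with each line joining the 2 libraries of 1 heart. The first 6 genes, NPPB to MGP, are higher at 24 h in all 3 hearts, and KMT2A, CRAMP1, MTCL2 and RGS5 are lower in all 3.

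Smooth muscle markers were higher at 24 h in all 3 hearts for 6 of 10 genes, where the share over all genes was 15.3%. Their list median was largest in pig 1. CNN1, which encodes calponin, stood at 2740.0, 978 and 525 normalised counts at 24 h and at 556, 484 and 303 at 0 h. Its log2 difference was 1.37 ± 0.30 (SE), with an adjusted p of 0.22 by limma and 0.00106 by DESeq2. TAGLN, or transgelin, stood at 6488, 5219.8 and 4008 at 24 h and at 2171, 3223 and 2765 at 0 h, and DESeq2 called it as well (adjusted p 0.0404). MYH11, the smooth muscle myosin heavy chain, stood at 6444, 3421 and 1974 at 24 h and at 1670.0, 1315 and 1222 at 0 h. In these 3 genes pig 1 had the highest 24 h value and pig 5 the lowest. ACTG2, the enteric smooth muscle actin, stood at 583, 202 and 32.5 at 24 h and at 39.5, 18 and 14.4 at 0 h.

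All 10 smooth muscle markers were tested. Of them 5 were higher at an unadjusted p under 0.05, where the share over all genes was 5.86%. Those were MYH11, ACTA2, TAGLN, CNN1 and LMOD1. The list median was 0.67 in the fit and 1.48, 0.37 and 0.22 in pigs 1, 3 and 5, against -0.01 over all tested genes. It was 0.32 under total-count scaling, where all tested genes had a median of -0.36. The same list had medians of 0.18, 0.63 and 0.19 in HOPE hearts 2, 4 and 6. For the difference between SCS and HOPE 1 of the 10 genes had an unadjusted p under 0.05, against 10.2% of all genes. ACTG2 was higher at 24 h in all 3 HOPE hearts too, by 1.49, 2.61 and 0.71 on the log2 scale. SMTN, MYLK and SYNPO2, which the list also holds, differed by 0.08, 0.16 and 0.16. Pericyte markers had no common direction. RGS5, a regulator of G-protein signalling that marks pericytes, stood at 9181, 9312 and 9128 at 24 h and at 12505, 15043 and 12162 at 0 h, with no overlap. Its log2 difference was -0.52 ± 0.14 (SE), with an adjusted p of 0.27 by limma and 0.0325 by DESeq2. ABCC9, the regulatory subunit of the vascular ATP-sensitive potassium channel, differed by -0.63 ± 0.20 and CSPG4 by 0.46 ± 0.21. Among 9 tested pericyte markers of 10, 1 was higher and 2 were lower at an unadjusted p under 0.05, and the list median was 0.09. Over all genes the shares were 5.86% and 5.4%.

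Among fibroblast markers 10 of 15, and among collagen and matrix genes 14 of 31, were higher at 24 h in all 3 hearts, where the share over all genes was 15.3%, and none passed limma's adjusted p. TIMP1, the tissue inhibitor of metalloproteinases (ENSSSCG00000012277, chromosome X, positions 42103251 to 42106289), stood at 697, 961 and 799 normalised counts at 24 h and at 385, 574 and 478 at 0 h. Every 24 h value exceeded every 0 h value, and the log2 changes were 0.86, 0.74 and 0.74. The fitted difference was 0.78 ± 0.15 (SE), with an adjusted p of 0.22 by limma and 0.00106 by DESeq2. BGN, the small proteoglycan biglycan, stood at 3544, 3038 and 2096 at 24 h and at 1762, 1644 and 1436 at 0 h. MGP, a vitamin K-dependent inhibitor of calcification, stood at 12756, 15309 and 11841 at 24 h and at 6387, 6886 and 6283 at 0 h. Neither BGN nor MGP overlapped between the groups, and their log2 differences were 0.81 ± 0.24 and 1.02 ± 0.30 (SE), with limma adjusted p-values of 0.29 each.

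All 15 fibroblast markers were tested. Of these 9 were higher at an unadjusted p under 0.05, 0 were lower, and 8 did not overlap. Over all genes 5.86% were higher and 5.4% lower at that p, and 4.68% did not overlap on the higher side. The count of 9 was 0 under total-count scaling, 1 with mitochondrial genes left out of the totals, and 4 under quantile normalisation. DCN, which encodes decorin, stood at 18973, 13799 and 18497 at 24 h and at 12989.8, 12640.0 and 11237 at 0 h. TCF21, a transcription factor of cardiac fibroblasts, stood at 412, 471 and 288 at 24 h and at 219, 234 and 287 at 0 h. PDGFRA, a receptor for platelet-derived growth factor, stood at 937, 774 and 621 at 24 h and at 1125, 753 and 636 at 0 h, so it did not share the direction. The list median was 0.48 in the fit and 0.38, 0.37 and 0.66 in pigs 1, 3 and 5. It was 0.14 under total-count scaling, where all tested genes had a median of -0.36.

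Collagens were less uniform. COL1A2 stood at 14576, 16238 and 12503 at 24 h and at 11670.2, 9343 and 6857 at 0 h. COL3A1 stood at 48248, 59154 and 42379 at 24 h and at 53697, 35499 and 23125 at 0 h, lower in pig 1 and higher in the other hearts. Of 31 tested collagen and matrix genes of 33, 10 were higher and 0 lower at an unadjusted p under 0.05. Over all genes the shares were 5.86% and 5.4%. Under total-count scaling 0 collagen and matrix genes were higher and 2 lower at that p. The median of this list was 0.30 in the fit, against -0.01 over all tested genes. It was -0.04 under total-count scaling, where all tested genes had a median of -0.36. Its sign turned with the scaling, while it stayed above the median of all genes. ADIRF, the adipogenesis regulatory factor, and SLIT3, a secreted guidance ligand, were higher in all 3 hearts by 1.15 ± 0.36 and 1.49 ± 0.37 (log2, SE). Markers of adipocytes, with 7 of 10 tested, had a median of 0.10, and those of Schwann cells and neurons, with 7 of 12 tested, had a median of 0.11.

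**Figure D2:**
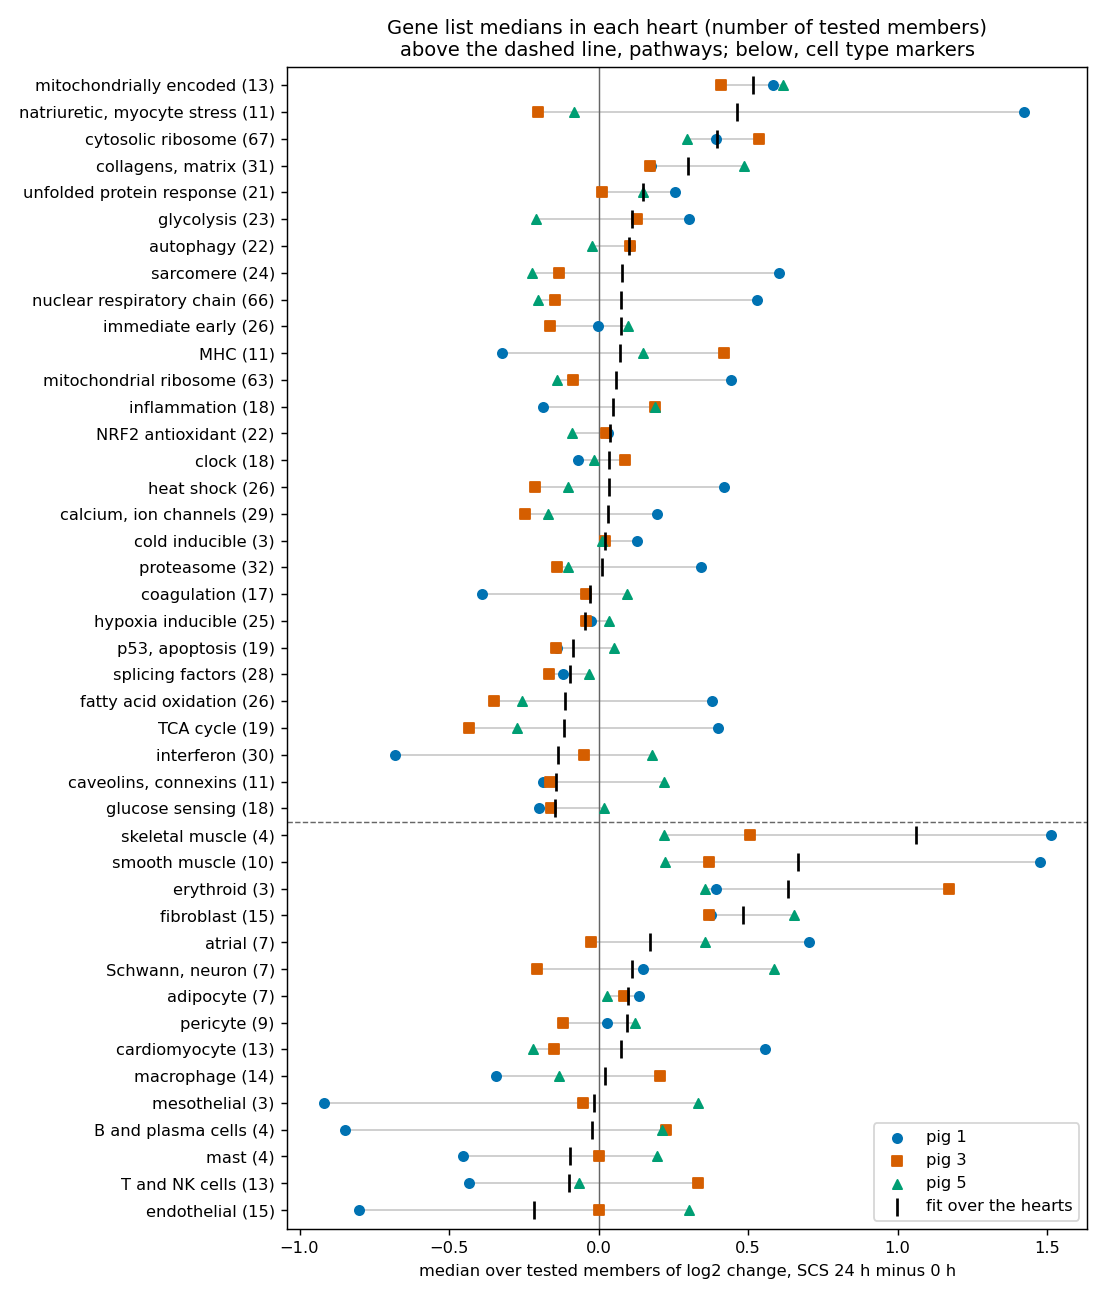
Median log2 change from 0 h to 24 h of static cold storage over the tested members of each gene list, for pigs 1, 3 and 5 (points) and from the fit (black bars), with the number of members in brackets. Mitochondrially encoded, cytosolic ribosomal, collagen, smooth muscle and fibroblast lists lie above 0 in all 3 hearts. So do the skeletal muscle, red cell, unfolded protein response, cold-inducible and adipocyte lists. The nuclear respiratory chain, TCA cycle and endothelial lists have pig 1 on the other side from pig 5.

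Cytosolic ribosomal protein genes, whose products build the translating ribosome, were higher at 24 h in the normalisation as deposited. Of 78 listed genes 67 were tested, and the other 11 had no row under their symbol. All 67 had a positive log2 difference and all 67 were higher at 24 h in each of the 3 hearts. Of them 62 had an unadjusted p under 0.05. Over all genes 15.3% were higher in all 3 hearts and 5.86% were higher at that p. That count of 62 was 0 under total-count scaling, 28 with mitochondrial genes left out of the totals, 23 under quantile normalisation and 0 with no replicate block. None passed adjustment in limma, where the smallest adjusted p was 0.22. DESeq2 called 23 of them higher, where the share over all genes was 0.566%. The differences were small, from 0.21 for RPL5 to 0.59 for RPS19, with a median of 0.40.

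RPS19, a protein of the small subunit (ENSSSCG00000003042), stood at 12616, 18709 and 20023 normalised counts at 24 h and at 9428, 10542 and 13816 at 0 h. Its log2 difference was 0.59 ± 0.13 (SE), with an adjusted p of 0.22 by limma and 8.1e-05 by DESeq2. RPL28, of the large subunit, stood at 8199.7, 9361 and 9776 at 24 h and at 5329, 6041 and 7481 at 0 h, with no overlap. RPL5, at the other end, stood at 16397, 18431 and 22603 at 24 h and at 14451, 15412 and 19787 at 0 h. The list median was 0.39, 0.54 and 0.30 in pigs 1, 3 and 5. The level of this list depended on the scaling. Its median was 0.05 with 47 of 67 positive under total-count scaling. It was 0.26 when mitochondrial genes were left out of the totals, and 0.21 with 65 of 67 positive under quantile normalisation. The median of all tested genes was -0.36, -0.15 and -0.01 under these scalings in turn, and -0.01 in the fit. Many ribosomal protein genes have near-identical processed copies in mammals, and the sources used here do not say how multi-mapped reads were counted.

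The 13 genes encoded in the mitochondrial genome, all coding for parts of the oxidative phosphorylation machinery, were also higher in all 3 hearts. Together they held 41.2%, 45.2% and 62.1% of the normalised counts at 24 h in pigs 1, 3 and 5, against 35.9%, 38.7% and 52.5% at 0 h. The share was larger by 5.37, 6.54 and 9.57 percentage points, a mean of 7.16 ± 2.2 (SD, n = 3), and the exact two-sided sign-flip permutation test gave p = 0.25, the smallest that 3 pairs allow. In HOPE hearts 2, 4 and 6 the share moved by 2.00, 1.28 and -7.71 points over the same 24 h. The exact permutation p between SCS and HOPE changes was 0.1, the smallest that 3 against 3 allow.

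Each mitochondrially encoded gene had a log2 difference between 0.45 and 0.63, and none had an unadjusted p under 0.05. COX1, a catalytic subunit of cytochrome c oxidase, stood at 3988952, 3840646 and 7483307 normalised counts at 24 h and at 2464969, 2674249.7 and 4664310.2 at 0 h. The list median was 0.52 in the fit and 0.17 under total-count scaling, where all tested genes had a median of -0.36. Under quantile normalisation the list median was 0, with 5 of 13 positive. That method gives genes of the same rank the same value in every library. It can therefore show little of a change in the most abundant genes. The library protocol selects polyadenylated RNA, per the labels, and mitochondrial transcripts carry short tails; its part in the share was not tested. ND6 lies on the other strand of the mitochondrial genome from the remaining 12, and without it the share was larger by 5.21, 6.54 and 9.25 points. Genes for the mitochondrial ribosome had a median of 0.06 over 63 tested of 74 and values of 0.44, -0.08 and -0.14 in pigs 1, 3 and 5.

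**Figure D3:**
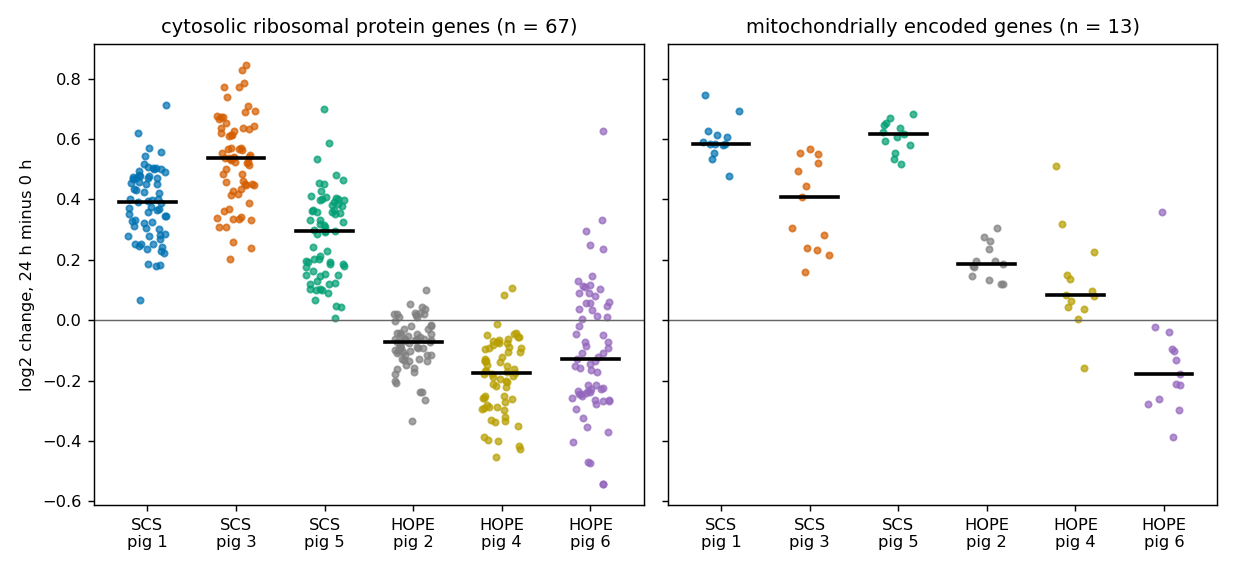
Log2 change from 0 h to 24 h of each of 67 cytosolic ribosomal protein genes (left) and 13 mitochondrially encoded genes (right) in SCS hearts 1, 3 and 5 and HOPE hearts 2, 4 and 6; points are genes and black bars are medians. Ribosomal medians are 0.39, 0.54 and 0.30 in the SCS hearts and -0.07, -0.17 and -0.13 in the HOPE hearts.

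The lower genes described here were chosen for lying lower at 24 h in all 3 hearts or for a small p, and none passed limma's adjusted p. KMT2A, a histone methyltransferase, stood at 239, 274 and 303 normalised counts at 24 h and at 749.7, 528 and 459 at 0 h, with no overlap. Its log2 difference was -1.06 ± 0.35 (SE), with an adjusted p of 0.29 by limma and 0.0637 by DESeq2. CRAMP1, a regulator of linker histone genes, stood at 204, 241 and 191 at 24 h and at 402, 362 and 294 at 0 h. Its log2 difference was -0.73 ± 0.18 (SE), and DESeq2 called it at an adjusted p of 0.0342. MTCL2, a microtubule crosslinking factor, stood at 39, 71.2 and 74 at 24 h and at 160.1, 155 and 116 at 0 h. ANKZF1, which releases nascent chains from stalled ribosomes, stood at 39, 27.7 and 16.3 at 24 h and at 96.7, 54.9 and 76.8 at 0 h. Both had a limma adjusted p of 0.22 and no overlap.

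The remaining genes chosen for a uniform lower value showed log2 differences between -0.66 and -1.02. They were HECTD4, a HECT-domain ubiquitin ligase, ABCC5, an exporter of cyclic nucleotides, CREBZF, a leucine zipper co-regulator, AGAP2, an Arf GTPase-activating protein, PLEKHA6, GPR182 and NHSL1. Among splicing factors, with 28 of 31 tested, 8 were lower and 2 higher in all 3 hearts, and the median was -0.10. Over all genes 15% were lower and 15.3% higher in all 3 hearts. SRSF2, a serine- and arginine-rich splicing factor, stood at 266, 206 and 229 at 24 h and at 343, 299 and 360.1 at 0 h. PPIG, a cyclophilin of nuclear speckles on the same list, was at the opposite end with 599, 889 and 997 at 24 h and 554, 520.5 and 519 at 0 h. PHLDA3, a p53-regulated inhibitor of AKT, and PRR13, a proline-rich protein, were higher by 0.78 ± 0.16 and 0.50 ± 0.10 (log2, SE), with limma adjusted p-values of 0.22 each.

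Energy metabolism, contraction and protein folding showed no common direction, and in most of these lists pig 1 stood opposite to the other hearts. The TCA cycle list, with 19 of 19 tested, had medians of 0.40 in pig 1, -0.43 in pig 3 and -0.27 in pig 5. CS, or citrate synthase, stood at 15019, 6202 and 6942 normalised counts at 24 h and at 11095, 9778 and 10067 at 0 h. Fatty acid oxidation, with 26 of 27 tested, had medians of 0.38, -0.35 and -0.26 in the same order of pigs. DECR1, an auxiliary enzyme of beta oxidation, had the lowest p of that list and stood at 3648, 1524 and 1749 at 24 h and at 3252, 2730.2 and 2621 at 0 h. Nuclear-encoded respiratory chain subunits, with 66 of 77 tested, had medians of 0.53, -0.14 and -0.20. Sarcomere genes, with 24 of 26 tested, had medians of 0.60, -0.13 and -0.22, and cardiomyocyte markers, with 13 of 16 tested, had 0.56, -0.15 and -0.22.

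NEXN, a Z-disc protein, was higher in all 3 hearts at 9379.6, 4812 and 5341 at 24 h, against 4927, 3823 and 4117 at 0 h. Glycolysis, with 23 of 24 tested, had a median of 0.11. ENO1, or enolase, stood at 2639, 3489 and 2864 at 24 h and at 2137, 2529 and 2499 at 0 h, with no overlap and a log2 difference of 0.32 ± 0.11 (SE). Calcium handling and ion channel genes, with 29 of 32 tested, had a median of 0.03, with 1 higher and 3 lower at an unadjusted p under 0.05. Over all genes the shares were 5.86% and 5.4%. Heat shock genes, with 26 of 30 tested, had a median of 0.03 and no member at an unadjusted p under 0.05. CRYAB, a small heat shock protein of muscle, stood at 29583, 19223 and 20455 at 24 h and at 11334, 22574 and 22506 at 0 h, higher in pig 1 alone.

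Pathways that respond to lack of oxygen, cold or damaged protein showed few differences at 24 h. VEGFA, the hypoxia-responsive vascular growth factor, stood at 1176, 849 and 947 normalised counts at 24 h and at 1308, 1302 and 1459 at 0 h. Over 25 tested hypoxia-inducible genes of 26 the median was -0.04, with 0 higher and 1 lower at an unadjusted p under 0.05. The lower one was KDM3A, a histone demethylase, at -0.52 ± 0.21 (log2, SE). Over all genes 5.86% were higher and 5.4% lower at that p. CIRBP and RBM3 encode cold-inducible RNA-binding proteins. CIRBP stood at 3109, 3348 and 3120.1 at 24 h and at 3345, 3298 and 3396 at 0 h, and RBM3 at 1680.1, 2582 and 2286 at 24 h and at 1538, 2225 and 1966 at 0 h. The log2 differences were -0.07 ± 0.11 for CIRBP and 0.19 ± 0.14 for RBM3 (SE).

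Immediate early genes, with 26 of 30 tested, had a median of 0.07. Their 1 member higher at an unadjusted p under 0.05 was GADD45B, where the share over all genes was 5.86%. The unfolded protein response list, with 21 of 22 tested, had a median of 0.15. PDIA4, an endoplasmic reticulum disulfide isomerase, stood at 2176, 2464 and 2416 at 24 h and at 1693, 2036 and 1804 at 0 h, with no overlap. Medians were 0.01 for 32 tested proteasome genes, 0.10 for 22 autophagy genes, 0.04 for 22 NRF2 antioxidant genes, -0.09 for 19 p53 and apoptosis genes and 0.04 for 18 clock genes. PER2, a core clock repressor, was lower in all 3 hearts by 0.45, 0.52 and 0.45 on the log2 scale, and TP53INP1, a p53 target, by 0.94, 0.55 and 0.22, at limma adjusted p-values of 0.29 each. Glucose-sensing genes, with 18 of 18 tested, had a median of -0.14, with 2 higher and 3 lower at an unadjusted p under 0.05. Over all genes the shares were 5.86% and 5.4%. In all 3 hearts 8 of the 18 were lower and 3 were higher, against 15% and 15.3% of all genes. TXNIP, a glucose-responsive arrestin, stood at 30532, 15777 and 6481 at 24 h and at 36566, 17689.8 and 7193 at 0 h. TXNIP was lower at 24 h in each heart, and its levels in the 3 hearts did not come close to each other at either time.

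Endothelial markers had no common direction across the hearts. PECAM1, an endothelial junction molecule, stood at 4751, 15158 and 15340.3 normalised counts at 24 h and at 10012, 16770.3 and 12727 at 0 h. All 15 endothelial markers were tested, with medians of -0.80, 0.00 and 0.30 in pigs 1, 3 and 5 and 1 higher and 0 lower at an unadjusted p under 0.05. That higher gene was EGFL7, a secreted endothelial protein, at 1741, 4139 and 4148 at 24 h and 1359, 2550.0 and 2717 at 0 h. Over all genes 5.86% were higher and 5.4% lower at that p. CAV1, the coat protein of caveolae, stood at 596, 2724 and 3011 at 24 h and at 2709, 3846 and 3169 at 0 h. Its log2 difference of -0.92 ± 0.47 (SE) was largest in pig 1. F2R, the thrombin receptor, stood at 123, 686 and 707 at 24 h and at 617, 868 and 743 at 0 h. Caveolin and connexin genes, with 11 of 12 tested, had a median of -0.14, and coagulation genes, with 17 of 18 tested, -0.03.

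Among inflammatory genes, CCL2, a monocyte chemoattractant, stood at 278, 306 and 516 normalised counts at 24 h and at 131, 229.7 and 299 at 0 h. It was higher in each heart, the groups overlapped, and the log2 difference was 0.76 ± 0.22 (SE, limma adjusted p 0.29). SELP, the adhesion molecule P-selectin, stood at 26, 30.3 and 17.8 at 24 h and at 74.9, 60.4 and 68.4 at 0 h, with no overlap and a difference of -1.45 ± 0.64. These were the only 2 of 18 tested members of 27 with an unadjusted p under 0.05, against 11.3% of all genes in either direction. The list median was 0.05. Interferon-stimulated genes, with 30 of 33 tested, had medians of -0.68, -0.05 and 0.18 in pigs 1, 3 and 5. IFI6 was higher in all 3 hearts at 2089, 4251 and 2878 at 24 h, against 1693, 2692 and 1892 at 0 h, while MX2, an antiviral GTPase, was lower in all 3 at 377, 1300.0 and 904 at 24 h, against 1342, 1692 and 988 at 0 h.

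Antigen presentation genes, with 11 of 21 tested, had a median of 0.07. Markers of immune cells gave medians of 0.02 for macrophages (14 of 15 tested), -0.10 for T and NK cells (13 of 15), -0.02 for B and plasma cells (4 of 10), -0.09 for mast cells (4 of 9) and -0.31 for the single tested neutrophil marker of 13. None of these immune markers had an unadjusted p under 0.05. Skeletal muscle markers had 4 of 13 tested and a median of 1.06. TNNT1, the slow skeletal troponin T, stood at 2941, 4065 and 1595 at 24 h and at 449, 2164 and 1152 at 0 h. MYH4, the fast skeletal myosin, was at 0 in all 6 libraries. Mesothelial markers, with 3 of 11 tested, had a median of -0.02. Red cell markers, with 3 of 12 tested, had a median of 0.63, and none had an unadjusted p under 0.05. Their values were low, with sums of 53.5, 77.8 and 93.2 normalised counts at 24 h and 42.6, 29.0 and 68.4 at 0 h. AHSP, a stabiliser of alpha globin, was at 0 in all 6 libraries.

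The same 24 h interval in HOPE hearts gave 3 further changes in hearts that share no library with the SCS hearts, and the difference between the changes was tested directly. No gene passed adjustment in limma for the SCS change minus the HOPE change (0 of 14141, 0%). At an unadjusted p under 0.05 there were 1442 genes (10.2%), with 696 genes with a higher change in SCS (4.92%) and 746 with a lower one (5.28%), and DESeq2 called 100. Across genes the SCS and HOPE changes from the fit had a Pearson correlation of 0.04. The ribosomal list had 56 of 67 members at an unadjusted p under 0.05, all with the higher change in SCS, and a median difference of 0.53. Its median change in the normalisation as deposited was positive in each SCS heart and negative in each HOPE heart.

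TIMP1 was among the 6 genes with the smallest p for this difference. It stood at 248, 196 and 385 normalised counts at 24 h and at 239, 303 and 473 at 0 h in HOPE hearts 2, 4 and 6, so the HOPE levels did not share the difference seen in SCS hearts. The SCS minus HOPE difference of changes was 1.07 ± 0.22 (log2, SE, limma adjusted p 0.27). IFI35, an interferon-induced protein, gave 0.94 ± 0.19, ID1, an inhibitor of helix-loop-helix factors, 0.97 ± 0.20, MRGBP, a subunit of the NuA4 acetyltransferase, 1.19 ± 0.26 and PHLDA3 1.03 ± 0.23. These differences also hold lower values in HOPE hearts. IFI35, ID1 and MRGBP changed by 0.46, 0.46 and 0.48 in SCS and by -0.47, -0.50 and -0.71 in HOPE. PHLDA3 changed by 0.78 in SCS and -0.25 in HOPE. NHSL1 was lower in every SCS heart and higher in every HOPE heart, at -1.23 ± 0.25. Limma adjusted p-values were 0.27 for each of these 6 genes.

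The levels of NPPB at 0 h did not overlap between the arms, and this was not tested. At 0 h, NPPB stood at 71.7, 47.8 and 9.6 normalised counts in SCS hearts and at 656, 255 and 148 in HOPE hearts. After 24 h it stood at 1199, 312 and 217 in SCS hearts and at 93.4, 4.96 and 355 in HOPE hearts. The difference of changes was 6.02 ± 1.54 (log2, SE, limma adjusted p 0.29). HOPE hearts 2 and 4 had less NPPB at 24 h than at 0 h and HOPE heart 6 had more. The same division of the HOPE hearts was seen for NPPA, MYL4, DKK3, PDYN and SFRP1.

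The neighbouring storage times of the same SCS hearts place the 24 h values in a series, and they share the 0 h libraries. Limma called 0 genes at 12 h (0%), with 657 at an unadjusted p under 0.05 (4.65%), and 308 genes at 48 h (2.18%). The 48 h library of pig 5 stood apart, with a mitochondrial share of 82.4%, against 48.0% and 60.0% in pigs 1 and 3 at that time. Without that library limma called 0 genes at 48 h, with 2636 at an unadjusted p under 0.05, against 2900 with it, so every call at 48 h given here rests on it. For 24 h against 12 h it called 0, with 599 at an unadjusted p under 0.05 (4.24%). TIMP1 began at 385, 574 and 478 normalised counts at 0 h and had 437, 673 and 668 after 12 h. It had 697, 961 and 799 after 24 h, then 746, 942 and 1119.7 after 48 h. Its log2 difference at 48 h was 0.97 ± 0.15 (SE, limma adjusted p 0.013), and 0.86 ± 0.17 without the 48 h library of pig 5 (adjusted p 0.0768). That of RPS19 was 0.76 ± 0.13 (limma adjusted p 0.013), and 0.75 ± 0.14 without that library (adjusted p 0.0768).

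The median of the ribosomal list was 0.26 after 12 h, 0.40 after 24 h and 0.44 after 48 h, and at the last time 20 of its 67 members were called higher by limma's adjusted p, where the share over all genes was 1.08%. Without the 48 h library of pig 5 the median was 0.49 and 0 members were called. The mitochondrially encoded list had medians of 0.43, 0.52 and 1.55 at the same times, and 10 of 13 members were called higher at 48 h. Without that library the 48 h median was 1.21 and 0 were called. The mitochondrial share of pig 1 was 35.9% at 0 h and 33.1% at 12 h, so it was not larger at every time. Of all tested genes, 1.1% were called lower at 48 h with all libraries. PPIG, at 599, 889 and 997 after 24 h, was at 792, 1257 and 2023 after 48 h, a log2 difference of 1.25 ± 0.20 (limma adjusted p 0.013) and of 0.92 ± 0.18 without the 48 h library of pig 5 (adjusted p 0.0768). CAV1, at 596, 2724 and 3011 at 24 h, was at 174, 2441 and 573 at 48 h, a log2 difference of -2.36 ± 0.47 (limma adjusted p 0.023) and of -2.11 ± 0.54 without it (adjusted p 0.0916). SELP differed by -3.04 ± 0.64 at 48 h (limma adjusted p 0.029) and by -3.95 ± 0.61 without it (adjusted p 0.0742). NPPB and NPPA did not pass at 48 h. NPPB had 79.1, 449.7 and 463 normalised counts after 12 h, and 449, 399 and 70.2 after 48 h. NPPA had 1081, 1169.6 and 318 after 12 h, and 572, 1685 and 564 after 48 h.

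**Figure D4:**
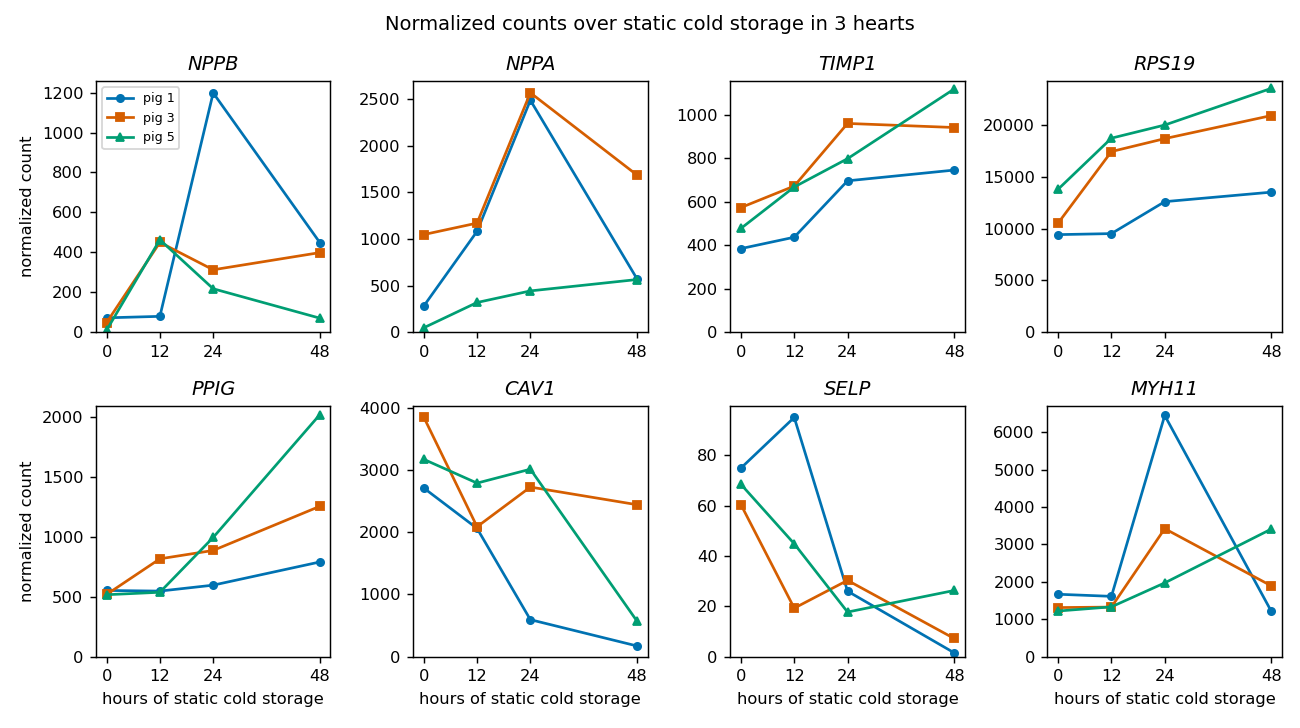
Normalised counts of 8 genes at 0, 12, 24 and 48 h of static cold storage in pigs 1, 3 and 5. TIMP1 and RPS19 are higher at 48 h than at 0 h in all 3 hearts, CAV1 and SELP are lower, and NPPB peaks at 12 h in pigs 3 and 5 and at 24 h in pig 1.

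Short genes were more often higher and long genes more often lower at 24 h, a description without a test and chosen after the values had been seen. Genomic spans in the RefSeq annotation of Sscrofa11.1 were found by symbol for 11295 of the 12024 tested genes with a symbol. The genes were put into 5 groups of nearly equal size by span. In the shortest group, with spans up to 9.585 kb, 13.9% of genes were higher and 1.42% lower at an unadjusted p under 0.05. In the longest group, with spans of at least 93.437 kb, 2.08% were higher and 8.19% lower. The median log2 change ran 0.13, 0.01, -0.03, -0.07 and -0.10 from the shortest to the longest group. The pattern differed between hearts. The Spearman correlation of span with change across genes was -0.30 in pig 1, -0.17 in pig 3 and -0.01 in pig 5, and it was 0.08, 0.29 and -0.07 in HOPE hearts 2, 4 and 6. RNA integrity per library is not given beyond the RIN above 6 that is stated in the labels' protocols, and its part in the span pattern was not tested.

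**Figure D5:**
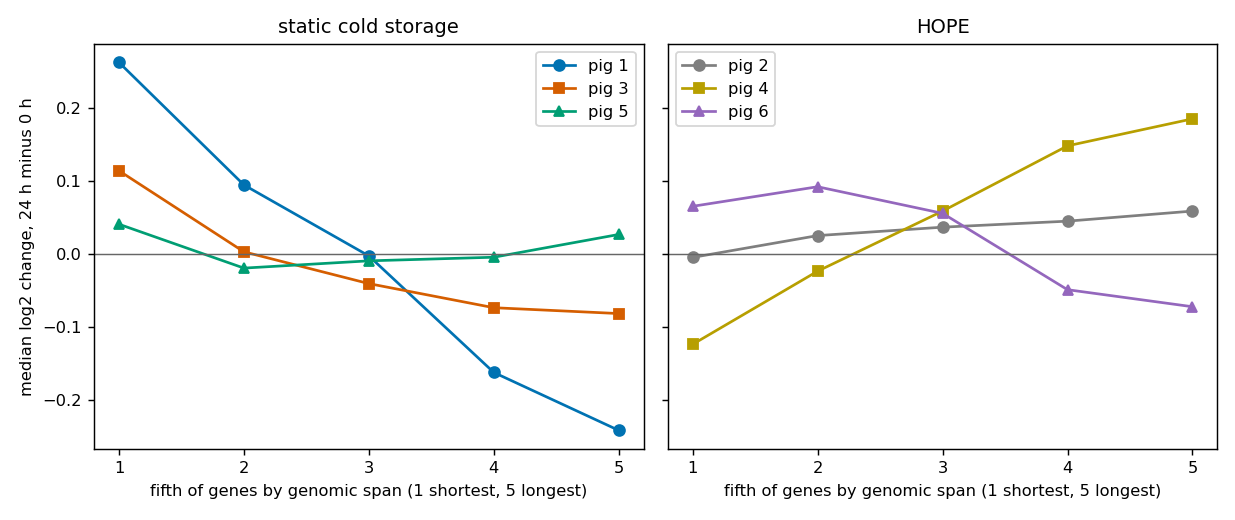
Median log2 change from 0 h to 24 h over genes in 5 groups by genomic span, for SCS hearts 1, 3 and 5 (left) and HOPE hearts 2, 4 and 6 (right). The line falls from 0.26 to -0.24 in pig 1 and from 0.11 to -0.08 in pig 3, is close to flat in pig 5, and climbs in HOPE pig 4.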

How the data were processed

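Poly(A) RNA of myocardial biopsies was sequenced with a stranded kit, per the labels' protocols. The arm 1 table that the authors deposited holds normalised counts, a signal obtained by dividing the counts of a library by its size factor, as the file header and values show. Whole reads were recovered for 100% of values (tolerance 1e-06), at 19722065 to 35099406 reads per library. Per the submitters' processing notes, the tools were Trimmomatic 0.36, bcl2fastq 2.17, FastQC, STAR 2.5.2b, HISAT2 2.2.1, Subread 1.5.2, featureCounts 2.0.6, DESeq2 and the Sscrofa11.1 build; which of them made this table, and whether strand was used in counting, are not stated in these notes. The arm 2 table was not used here.

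The 14141 genes averaging at least 10 in arm 1 were fitted with limma 3.58.1 in R 4.3.3 (lmFit, contrasts, eBayes with a mean trend) on log2(normalised count + 1), with the pig as a fixed block and 12 residual degrees of freedom. Adjusted p-values are Benjamini-Hochberg values, with 0.05 as the threshold. Fold changes are on this log2 scale, so those of low genes are understated. The pig number in the titles pairs the biopsies of 1 animal, and same-pig deviations from the group means correlated at 0.23 to 0.72 in 18 SCS pairs. Alternatives were the fit without the block, edgeR 4.0.16 (quasi-likelihood) and DESeq2 1.42.0 on recovered reads of 23 libraries, other scalings, pseudocounts and minimum values, subsets of libraries, and each pig left out. The SCS 12 h library of pig 1 was left out of the count tests because its step, the smallest value above 0, was 0.989 and so near 1. Its values still gave whole reads, and the HOPE 48 h library of pig 6, with a step of 0.985, was kept. DESeq2 gave no adjusted p for 7128 genes. The limma code was tested on simulated data.

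Genes were named by these rules: any past adjustment at 24 h; among genes with a symbol, a mean of at least 100 in the 6 SCS libraries and the same direction in 3 of 3 pigs, the 10 higher and 10 lower ones whose smallest within-pig change was largest; the 6 with the smallest p; the 6 with the smallest p for the difference from HOPE; and in each list the first 3 tested members and the 3 with the smallest p. Other list members, the genes named at 48 h and those called by DESeq2 alone were picked after their values were seen. A gene that the rules name is not reported here. The comparison, the 28 pathway lists and the 16 cell type lists were chosen with earlier results of these data known. Symbols came from the table for 14365 genes and from a reference table for 109, and positions from RefSeq by symbol.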

Additional observations from a re-analysis of the deposited data

Results flagged for a closer look

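In the normalisation as deposited, the median change of the 67 cytosolic ribosomal protein genes had opposite signs in the SCS and HOPE hearts. Over the 24 h their median log2 change was 0.39, 0.54 and 0.30 in SCS hearts 1, 3 and 5 and -0.07, -0.17 and -0.13 in HOPE hearts 2, 4 and 6, so every SCS heart lay on one side and every HOPE heart on the other. The median over these genes of the SCS change minus the HOPE change was 0.53. The difference of the medians was not tested. Under total-count scaling the SCS median of the list was 0.05, with 47 of 67 positive. That scaling moved the median SCS minus HOPE difference of all tested genes from -0.05 to -0.30. The HOPE medians of the list under other scalings are not given here. Among single members, 56 had an unadjusted limma p under 0.05 for the difference of changes and 0 passed adjustment. Over all genes 4.92% had a higher change in SCS at that p. The mitochondrial share was larger by 5.37 to 9.57 points in the same SCS hearts and moved by 2.00, 1.28 and -7.71 points in the HOPE hearts; its part in the ribosomal difference was not tested.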

How the results depend on the processing

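For 24 h against 0 h, limma called 0 genes with the pig as a replicate block and 0 with no replicate block, with 482 genes against 1592 at an unadjusted p under 0.05. DESeq2, with the block, called 90 genes for this change and 100 for its difference from HOPE; 23 of the 90 were ribosomal. With only the 0 h and 24 h libraries in the fit, limma called 3 genes at 24 h: NPPB, DKK3 and one without a symbol. Leaving out each pig in turn gave 0 to 2 calls for the change, the 2 appearing without pig 1, and 0 to 0 for the difference from HOPE. The cause of these differences between settings was not tested. Other pseudocounts, minimum values and scalings, and edgeR, gave 0 calls for both. The 28 genes named by a uniform change or a small p kept their direction under the alternatives run. For genes chosen because all 3 hearts shared a direction, leaving out a pig could not turn it. Dropping the block, or libraries other than SCS 0 h and 24 h, returns the same estimate. That part of the result was fixed in advance. Among list members, 20 of 67 ribosomal genes turned under total-count scaling, where 317 of all 805 list members did. At 48 h, limma called 308 genes and, without the SCS 48 h library of pig 5, an alternative chosen after seeing the data, 0. Of 688 list medians under alternatives, 632 moved by less than the spread between hearts and 56 moved by more. Dropping the block, or libraries other than SCS 0 h and 24 h, could not move a list median. The count of 632 therefore includes medians that were fixed in advance. Total-count scaling moved the median of all genes to -0.36, and leaving mitochondrial genes out of the totals to -0.15. The mean change in mitochondrial share was 5.96 to 8.06 points with each pig left out. An exact test of 3 pairs cannot go below 0.25. Depth bears most on genes with few counts, such as ANKZF1, which lay between 16.3 and 96.7 normalised counts.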

Other observations

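Some genes outside the lists that DESeq2 called at 24 h against 0 h are given here as single genes, chosen after their values were seen. They include SSR2, a subunit of the translocon-associated complex, at 0.46 (adjusted p 0.000267), PPIB, an endoplasmic reticulum cyclophilin, at 0.56 (adjusted p 0.0363), and VAMP8 and VAMP5, vesicle fusion proteins, at 0.46 and 0.51. Others were MFAP4, a microfibril-associated glycoprotein, at 0.91 and PCOLCE, which enhances procollagen processing, at 0.56. The tetraspanins CD81 and CD151 stood at 0.34 and 0.44. On the lower side DESeq2 called ARID1A, a subunit of the SWI/SNF chromatin remodeller, at -0.76, GNAQ, a G-protein alpha subunit, at -1.04, WDFY3, an autophagy adaptor, at -0.65 and CELF1, an RNA-binding protein, at -0.47. None of these genes passed adjustment in limma with the pig as a block.

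Hearts differed in the level of single mitochondrial genes at both times. ND1 stood at 146609, 142041 and 1002353 normalised counts at 24 h in pigs 1, 3 and 5 and at 96301, 100887 and 644311 at 0 h, so pig 5 stood apart before storage. ATP8 showed the same order, with 31249, 22171 and 298927 at 24 h and 18643, 19832 and 190983 at 0 h. COX1 in pig 5 was less far from the other hearts. TNNI1, the slow skeletal troponin I, stood at 41.9, 274 and 234 at 24 h and at 56.2, 58.8 and 15.6 at 0 h, lower in pig 1 and higher in the other hearts.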
